A study of Mus musculus with 2 samples.

Results

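Beta-catenin, the TCF and LEF factors that carry it to DNA, and genes that they switch on are described here in MOS-J cells, a mouse osteosarcoma line, with and without human DKK1. The set of 10 genes was chosen by symbol as Ctnnb1, Tcf7, Tcf7l2, Lef1, Axin2, Nkd1, Znrf3, Apcdd1, Ccn4 and Myc, and every probe set naming 1 of these genes alone was taken. That gave 26 probe sets for 9 genes, out of 34945 probe sets with 1 symbol for 18193 genes. Tcf7 was not analysed here. The study has 2 samples, 1 array each: MOS-J cells that received a control lentivirus (control) and MOS-J cells that received a lentivirus with the human DKK1 gene (DKK1). No other treatment, time point or genotype separates them in the labels, and each labelling started from 500 ng of total RNA. The protocol text describes both a viral route with drug-resistant clones and a plasmid route with stable lines, then a red mitochondrial marker and sorting. Which of these steps the arrayed cells went through, and whether they came from 1 clone or many, the sources used here do not say.

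In the canonical Wnt pathway, a destruction complex built on Axin and APC marks beta-catenin for breakdown until a Wnt protein engages a Frizzled receptor with the co-receptor LRP. DKK1 is a secreted protein that binds the LRP co-receptors and so blocks this step. Stabilised beta-catenin enters the nucleus, joins a TCF or LEF factor and activates target genes, several of which feed back to damp the pathway. In the osteoblast lineage the pathway promotes bone formation.

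Each value is a signal, the brightness of a probe set on a linear scale. Probe sets whose mean over both arrays reached 71.3, the median of such means, are called measured, and the others dim. Differences are log2(signal + 16.6) on the DKK1 array minus the same on the control array, averaged over a gene's measured probe sets. The added 16.6 is the 25th percentile of all signals, and it understates the difference of dim genes. Calls of higher or lower required a difference of 1 or more in log2 units, that is 2-fold, with all measured probe sets of the gene on that side. With 1 array per group there is no replicate error and no test, so every difference below compares these 2 arrays alone. Array, culture and any batch cannot be told apart from the DKK1 group.

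Median signals were 62.6 for the control and 78.6 for the DKK1 array, and the SD of differences between probe sets of the same gene was 0.45. RNAs added as controls gave opposite shifts. The hybridisation controls had a median log2 ratio of -0.37 and the poly-A controls, which pass through labelling, 0.64. Among genes called, 62.9% were higher as deposited. Other scalings gave 51.4% (median centring), 51.1% (quantile normalization), 53.3% (loess), 85.6% (on hybridisation controls) and 16.6% (on poly-A controls). Those last 2 scalings put the median of all genes at 0.45 and -0.50, against 0.10 as deposited. Of 9 osteoblast markers on the array 6 were measured, whose list summed to a signal of 42779 in control cells and 47195 in DKK1 cells, while Ibsp, Dmp1 and Pth1r were dim. Most of that sum is Col1a2 (31456 and 24640), and 1 marker, Phex, was called lower, from 199.9 to 1.97. Tcf7 and Lef1 are best known from T cells. Of 5 T lymphocyte markers only Cd8a was measured, Cd3e, Cd3d, Cd4 and Cd2 were dim, and the list summed to 248 in control cells and 227 in DKK1 cells. Few markers of other cell types were measured: 3 of 7 for chondrocytes (summed signal 831 and 846), 3 of 7 for macrophages (305 and 491), 2 of 5 for epithelia (377 and 468), 1 of 4 for endothelium (163 and 171) and 1 of 3 for adipocytes (617 and 1316). Of these, Col9a1 (48.0 to 113), Lyz2 (14.5 to 136) and Fabp4 (613 to 1302) were called higher and none lower. The control signals of Col9a1 and Lyz2 lay below the filter. The part of other cell types in the results was not tested, and in such bulk RNA fewer cells of a type and less RNA per cell cannot be told apart. The transgene is human, so the 2 mouse Dkk1 probe sets, both dim, do not check the labels.

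The 9 genes did not move as a block. The factor genes Tcf7l2 and Lef1 and the feedback gene Axin2 were called higher in the DKK1 cells, Ccn4 and Myc were called lower, and Ctnnb1, Nkd1, Znrf3 and Apcdd1 were not called. The 3 higher genes are 33.3% of the 9, where 11.7% of all measured genes were called higher. The 2 lower genes are 22.2%, where 6.91% of all measured genes were. The 5 called in either direction are 55.6%, where 18.6% were. The set was chosen with earlier results of these data known, so these shares are not an independent result. Axin2, Nkd1 and 1 Tcf7l2 probe set passed the filter on the mean only through the DKK1 array. The filter thus has a part in the share of higher genes. With both signals required to reach it, 2 of 7 genes were called higher and 2 lower. The share of all genes under that rule is not given here. The median difference of the 9 genes was 0.42, beside 0.10 over all 11058 measured genes. All 9 had at least 1 measured probe set, but only 13 of their 26 probe sets were measured. Over the whole array, 20.7% of the 4840 dimmest measured probe sets were past 2-fold, and 21.3% of the 4840 brightest.

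**Figure D1:**
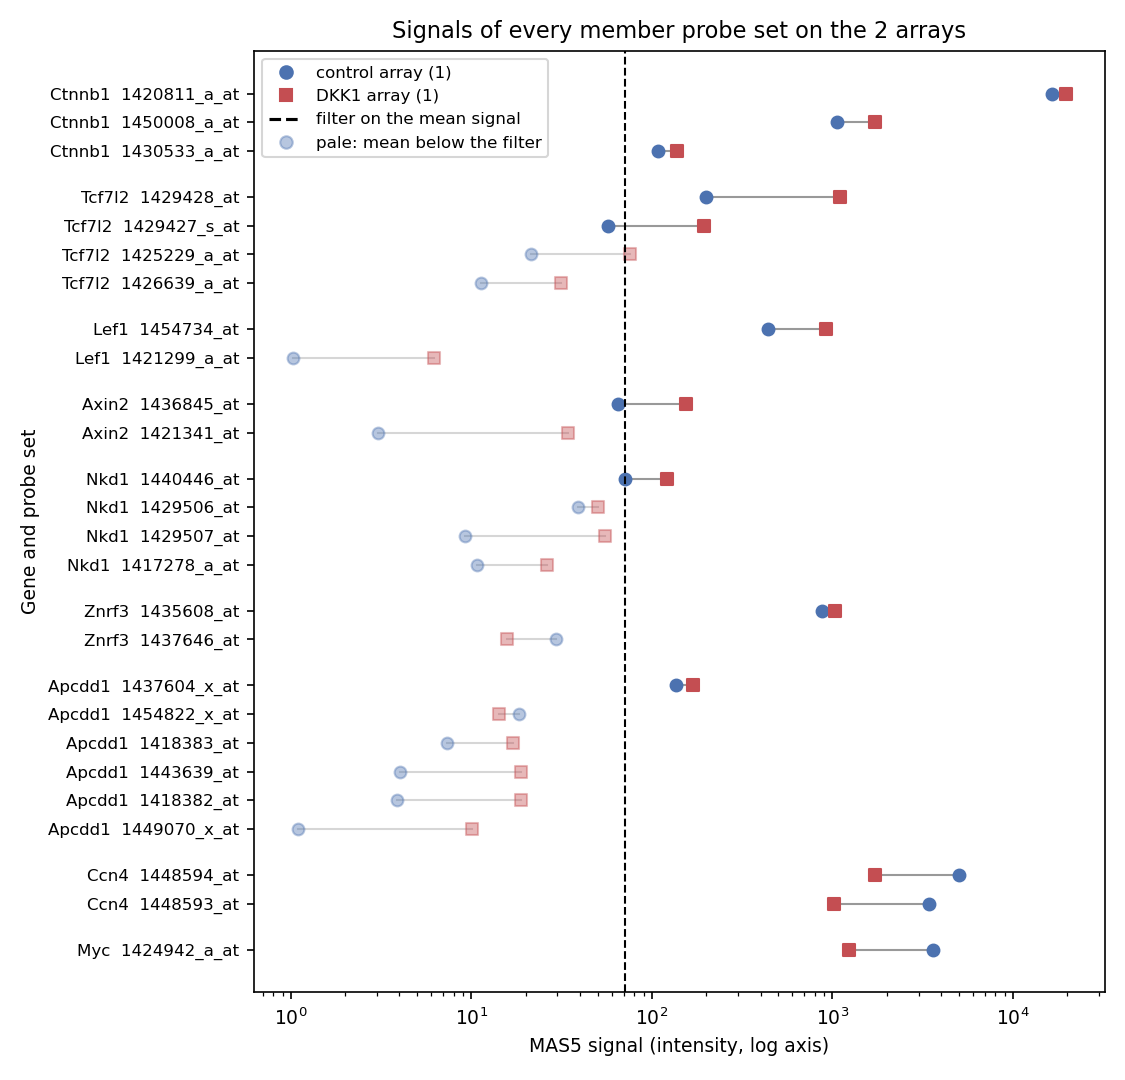
Signal (log axis) of each of the 26 probe sets for control (circles) and DKK1 (squares) cells, 1 array each, with a dashed line at the filter of 71.3 and pale symbols where the mean is below it. Both Ccn4 probe sets and the Myc probe set lie far to the right of the filter with the DKK1 signal lower, while 11 of the 13 dim probe sets have the DKK1 signal higher.

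Ctnnb1 encodes beta-catenin itself, a protein controlled mostly by its breakdown, which an RNA array does not measure. One of its 3 probe sets read 16445 in control cells and 19685 in DKK1 cells. The others went from 1058 to 1725 and from 108 to 137. All 3 were higher on the DKK1 array, by 1.20-fold, 1.63-fold and 1.26-fold, none of them reaching 2-fold. The gene difference was 0.42 with an SD of 0.24 between probe sets, at percentile 68.4 of all measured genes, and its direction flipped to -0.19 on poly-A scaling.

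Tcf7l2, also known as TCF4 in the Wnt literature, encodes a TCF factor that activates targets with beta-catenin and represses them without it. Its difference lay at percentile 97.1 of all measured genes and was the largest in size of the 9 as reported, while that of Ccn4 was larger without the filter, with the larger pseudocount and on poly-A scaling. One measured probe set read 199 in control cells and 1103 in DKK1 cells, which is 5.53-fold higher. The other measured probe set went from 56.9 to 193, which is at least 2.71-fold since the control signal lay below the filter. The dim probe sets went from 21.4 to 75.4 and from 11.4 to 31.3. All 4 probe sets were therefore higher on the DKK1 array. The gene difference was 1.94, with an SD of 0.61 between the 2 measured probe sets. Under the 13 alternative settings it lay between 1.34 and 2.37 and stayed called in each.

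Lef1 encodes the related factor LEF1, which activates targets through the same DNA motif. Its measured probe set went from 439 in control cells to 923 in DKK1 cells, 2.10-fold higher, with a log2 difference of 1.04. The other probe set was near the bottom of the scale, at 1.02 and 6.23. The call stood just inside the 2-fold limit and was lost in 6 of 13 alternatives, which gave values from 0.42 to 0.97.

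The promoters of the 3 higher genes are shown with the letters that TCF and LEF factors bind, CTTTG, usually followed by A. Each window runs from 250 bases before to 50 after a start site in RefSeq (GRCm38.p6), and the capitals mark CTTTG or, for the other strand, CAAAG. Windows of 6 of the 10 genes were searched, 12 windows in all, and these include windows of Tcf7, whose signal was not analysed. No window of Znrf3, Apcdd1, Ccn4 or Myc was searched, so nothing is said here of their promoters. The windows below lie at chr19:55741560-55741859 for Tcf7l2, at chr3:131110047-131110346 and chr3:131156044-131156343 for the first and the last Lef1 start, and at chr11:108920099-108920398 for Axin2, all on the + strand.
Tcf7l2: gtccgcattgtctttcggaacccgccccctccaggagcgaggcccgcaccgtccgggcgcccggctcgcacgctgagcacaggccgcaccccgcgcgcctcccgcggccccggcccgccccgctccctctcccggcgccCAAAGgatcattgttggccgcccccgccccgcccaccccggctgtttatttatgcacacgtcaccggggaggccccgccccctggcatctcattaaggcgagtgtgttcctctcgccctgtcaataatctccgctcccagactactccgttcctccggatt
Lef1 first start: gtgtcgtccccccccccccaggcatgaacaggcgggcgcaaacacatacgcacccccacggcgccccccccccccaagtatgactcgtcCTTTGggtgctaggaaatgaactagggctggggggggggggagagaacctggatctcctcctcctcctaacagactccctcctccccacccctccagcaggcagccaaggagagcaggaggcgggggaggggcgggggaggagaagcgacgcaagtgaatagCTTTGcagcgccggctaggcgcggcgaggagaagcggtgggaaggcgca
Lef1 last start: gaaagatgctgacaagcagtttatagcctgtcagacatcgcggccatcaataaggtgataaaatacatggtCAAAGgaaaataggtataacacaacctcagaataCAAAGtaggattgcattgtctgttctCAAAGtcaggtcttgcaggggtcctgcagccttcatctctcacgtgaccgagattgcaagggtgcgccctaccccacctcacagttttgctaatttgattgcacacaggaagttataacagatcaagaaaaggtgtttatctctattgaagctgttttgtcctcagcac
Axin2: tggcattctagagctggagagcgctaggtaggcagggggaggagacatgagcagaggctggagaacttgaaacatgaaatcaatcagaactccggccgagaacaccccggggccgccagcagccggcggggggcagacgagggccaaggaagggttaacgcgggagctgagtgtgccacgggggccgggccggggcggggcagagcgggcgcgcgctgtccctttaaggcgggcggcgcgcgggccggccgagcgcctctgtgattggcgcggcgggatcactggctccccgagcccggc
The Tcf7l2 window shown, which is not its only one, holds 1 match, the first Lef1 window 2, the last Lef1 window 3 and the Axin2 window 0. Of the 12 windows of the set, 6 hold CTTTG on either strand, beside 53.9% of all 32851 promoter windows. All 6 belong to Lef1 and Tcf7l2, and the first 2 Lef1 windows overlap and share their matches. The longer CTTTGA, which contains CTTTG, occurs in 1 of the 12, the last Lef1 start with 2 matches, beside 16.0% of all windows. That Lef1 window also holds the only CACGTG of the 12 windows, the letters Myc binds, found in 7.15% of all windows. These matches describe letters only, and these windows are short.

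The feedback inhibitors Axin2, Nkd1, Znrf3 and Apcdd1 are target genes whose products damp the pathway. All 4 had differences above 0 on the deposited scaling, from 0.23 to 1.08, and 1 of the 4 was called higher. Over all measured genes 55.9% were above 0, with a median of 0.10, and 11.7% were called higher. Znrf3 and Apcdd1 lay at percentiles 58.2 and 60.4 of all measured genes, Nkd1 at 79.2 and Axin2 at 89.8. Axin2 encodes a scaffold of the destruction complex and is widely used as a readout of canonical signalling. Its measured probe set went from 64.5 in control to 155 in DKK1 cells, at least 2.18-fold higher because the control signal was below the filter. Its dim probe set went the same way, from 3.03 to 34.2. The gene difference of 1.08 fell under 2-fold in 5 of 11 alternatives with a value, with a lowest value of 0.52.

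Nkd1 encodes a cytoplasmic protein that binds Dishevelled and restrains signalling. Its measured probe set went from 70.7 to 122, at least 1.71-fold, a difference of 0.67. The 3 dim probe sets went from 39.2 to 49.985, from 9.25 to 54.8 and from 10.7 to 26.3. Each of the 4 Nkd1 probe sets was higher on the DKK1 array, and the gene was called under none of its 11 alternatives, where values ran from 0.12 to 0.998. Znrf3 encodes a membrane ubiquitin ligase that removes Frizzled receptors from the cell surface. It went from 871 to 1027, a difference of 0.23, while its dim probe set went the other way, from 29.3 to 15.8. The direction of Znrf3 turned to -0.13 without the filter and to -0.39 on poly-A scaling. Apcdd1 encodes a membrane protein that binds Wnt proteins and LRP. Only 1 of its 6 probe sets was measured, with 137 in control cells and 169 in DKK1 cells (difference 0.27). The name of that probe set carries an x suffix, and Apcdd1 had no value where probe sets with an a, s or x suffix were left out. The 5 dim ones had signals between 1.10 and 18.9 on both arrays, and 4 of them were higher in DKK1 cells. The Apcdd1 direction also flipped, to -0.03 with quantile normalization and to -0.30 on poly-A scaling.

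Of the 13 dim probe sets of these genes, 11 were higher on the DKK1 array, with a median difference of 0.65. Over all 15585 dim probe sets with 1 symbol the median was 0.06 and 55.4% were above 0. Signals this low are noisy in MAS5, and dim probe sets entered no call as reported. The Axin2 call and 1 of the 2 measured Tcf7l2 probe sets still rest on control signals below the filter, 64.5 and 56.9.

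Ccn4, once named Wisp1 for its induction by Wnt1, encodes a secreted matrix-associated protein of the CCN family made in bone. Its probe sets had signals of 3436 and 5038 in control and 1014 and 1713 in DKK1 cells. Both were lower on the DKK1 array, 3.39-fold and 2.94-fold. The gene difference was -1.65 with an SD of 0.14 between the 2 probe sets, at percentile 2.35 of all measured genes. It stayed called lower in all 13 alternatives, between -2.28 and -1.28.

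Myc encodes a transcription factor that drives growth, ribosome production and proliferation, and is a target of beta-catenin in many epithelia. Its only probe set went from 3597 in control cells to 1235 in DKK1 cells, 2.91-fold lower. The difference was -1.53, at percentile 2.84, and it ran from -2.16 to -1.16 over the 12 alternatives with a value, called lower in each. Both lower genes lie on chromosome 15. Of the 7 measured genes between them in the RefSeq gene order, 2 were called higher and 0 lower, with a median of 0.08, beside 70 higher and 22 lower among 443 measured genes of the chromosome.

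**Figure D2:**
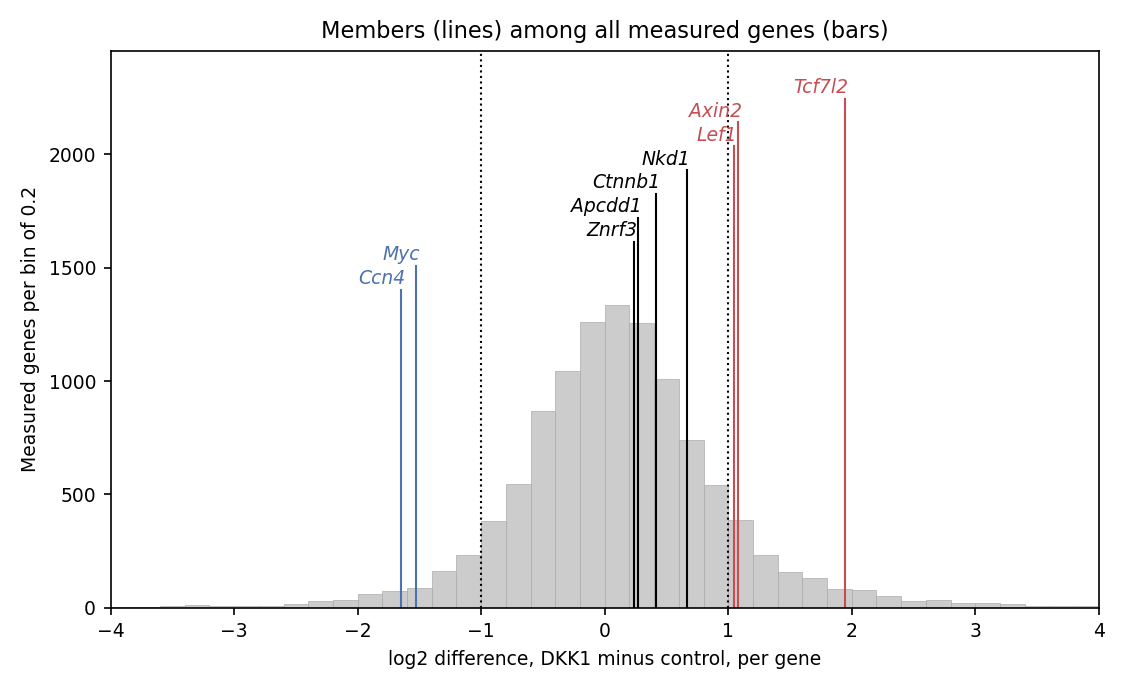
Distribution of the log2 difference (DKK1 minus control) over the 11058 measured genes in bins of 0.2, with a line for each of the 9 genes of the set and dotted lines at 2-fold; the axis stops at 4 on either side, leaving out 38 genes. Tcf7l2 at 1.94 lies in the upper tail and Ccn4 at -1.65 and Myc at -1.53 in the lower one, while Lef1 at 1.04 and Axin2 at 1.08 stand just past the limit.

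The surrounding pathway was described through 8 lists of other genes, 141 genes in all, of which 111 were measured. Of these, 20 were called higher (18.02%, beside 11.7% of all measured genes) and 16 lower (14.4%, beside 6.91%). The lists too were chosen with earlier results of these data known, so their shares are not an independent result. In the destruction complex and its regulators 1 of 17 measured genes was higher and 0 lower, with a median of -0.03. The higher gene was Gsk3a, a kinase that phosphorylates beta-catenin, which went from 1585 to 3326 (difference 1.06). That call ended with median centring (0.94) and with poly-A scaling (0.43). Of 15 measured nuclear coactivator genes 1 was higher and 0 lower, around a median of 0.36. The 1 was Kat5, an acetyltransferase gene (1.24, SD 0.25 between 2 probe sets; 0.62 and not called on poly-A scaling). These shares, 5.88% and 6.67%, were below the 11.7% of all measured genes called higher. The destruction complex list had 3 higher, 0 lower and a median of 0.33 on hybridisation scaling, and 0 higher, 3 lower and -0.63 on poly-A scaling. The coactivators had 5 higher and 0 lower, then 0 higher and 3 lower, on the same scalings. The medians of the coactivators and of the corepressors turned negative on poly-A scaling, -0.26 and -0.40.

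Corepressors and nuclear antagonists, which keep TCF targets silent, numbered 14 measured genes, around a median of 0.20. Of these, 3 were higher (21.4%, beside 11.7% of all measured genes) and 0 lower (beside 6.91%). Tle2, a Groucho corepressor gene, went from 355 to 1435, 4.04-fold higher (difference 1.97). Tle3, of the same family, differed by 1.56 (SD 1.29, 3 probe sets), and by 0.72 on its brightest probe set alone. Tcf7l1, a TCF factor that mostly represses, was higher by 1.04, and that call ended under 6 of 13 alternatives. With Tcf7l2 and Lef1, each of the 3 measured TCF and LEF genes was thus called higher as deposited. Only Tcf7l2 stayed called with a pseudocount at the median signal, median centring, quantile normalization, loess and poly-A scaling.

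Junction partners of beta-catenin numbered 5 measured genes, 3 higher (where 11.7% of all measured genes were) and 0 lower, around a median of 1.15. These were Jup, encoding the relative plakoglobin (from 26.6 to 124, at least 1.74-fold, so under 2-fold as a bound), Cdh2, encoding N-cadherin (difference 1.35), and Vcl, encoding vinculin (1.15). The remaining 4 genes of that list, Cdh1, Cdh3, Cdh5 and Cdh11, were dim. On poly-A scaling 1 gene of the list was called higher, and the median was 0.51. Without the filter 2 of 9 were called higher with a median of 0.39, and Vcl was not called (0.65). With both signals at or above the filter 2 of 4 were called higher, and with dim signals raised to the filter 2 of 5.

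Among other target genes of beta-catenin and TCF, 7 of 26 measured ones were higher (26.9%, beside 11.7% of all measured genes). Another 3 were lower (11.5%, beside 6.91%). The median was -0.08, and 16 of 42 on the array were dim. The highest were Bmp4, a bone morphogenetic protein gene (4.83, at least 27.0-fold), Tnfrsf11b, encoding osteoprotegerin (3.68), and Ccn5 (3.21, from 569 to 5392). Ccn5 belongs to the same CCN family as Ccn4 and was higher where Ccn4 was lower. Ccn1 (2.06, SD 0.29 between 4 probe sets) and Ccn2 (2.15), picked out after their values were seen, were higher too. The 3 lower ones, named in full, were the cyclin gene Ccnd2 (-1.82, SD 0.24 between 7 probe sets), Lbh (-1.28) and the growth factor gene Vegfa (-1.20). The balance depended on the scaling, with 8 higher, 1 lower and a median of 0.29 on hybridisation controls and 6 higher, 8 lower and -0.71 on poly-A controls. Most of these targets are also controlled by other pathways. Dim here were the widely used Wnt targets Lgr5, Rnf43, Notum, Sp5 and Nkd2, also picked out after the values were seen.

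**Figure D3:**
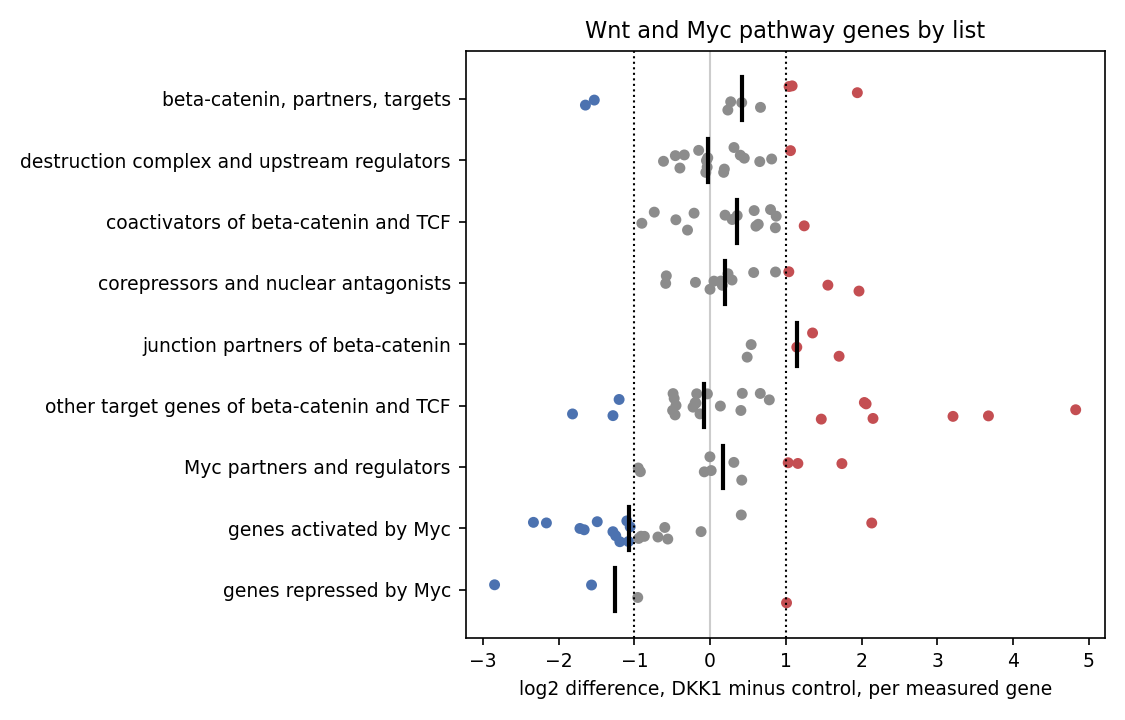
Log2 difference (DKK1 minus control) of each measured gene, 1 point per gene, by list, with red for genes called higher, blue for lower, grey for not called, black bars at list medians and dotted lines at 2-fold. Genes activated by Myc lie mostly to the left, with a median of -1.07, and so do those repressed by Myc (-1.26). The destruction complex centres near 0.

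Genes linked to Myc were taken in 3 lists. Of 20 genes that Myc activates, all measured, 11 were lower and 1 was higher, around a median of -1.07. That is 55.0% lower, beside 6.91% of all measured genes, on a list chosen with earlier results of these data known. Srm, encoding spermidine synthase, went from 6762 to 1329, 5.09-fold lower (difference -2.33). Nop56, encoding a core protein of small nucleolar RNA complexes, was lower by 4.52-fold (difference -2.16, SD 0.20 between 2 probe sets). Tert, the telomerase gene, was the 1 called higher, from 19.4 to 142, at least 1.99-fold, and was not called with dim signals raised to the filter (0.99). The list median stayed below 0 under all 13 alternatives, from -1.68 to -0.71, while 5 genes were called lower on hybridisation scaling and 17 on poly-A scaling. Of 4 measured genes that Myc represses, 2 were lower and 1 higher. The cell cycle inhibitor gene Cdkn1a (-1.57) and the growth arrest gene Gadd45a (-2.85) were lower, and Cdkn1b, another cell cycle inhibitor gene, was higher (1.01), a call that ended under 4 of 13 alternatives.

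Among partners and regulators of Myc, 3 of 10 measured ones were higher (30.0%, beside 11.7% of all measured genes) and 0 lower (beside 6.91%). The median of 0.16 turned to -0.45 on poly-A scaling. All 3 higher ones were Mxd genes, which encode repressors that compete with Myc for its partner Max. Mxd4 was higher by 1.74 (SD 1.07 between 4 probe sets), Mxd3 by 1.16 and Mxd1 by 1.03. With quantile normalization and with loess 0 of the 3 calls stood, since Mxd3 and Mxd1 fell under 2-fold and the Mxd4 probe sets no longer shared a side. Under both, and on poly-A scaling, 0 genes of the list were higher and 2 lower, and with median centring 2 were higher and 2 lower. Max (-0.95) and Mlx (-0.92), picked out after their values were seen, lay just short of 2-fold as reported. Mycn and Mycl, the relatives of Myc, were dim.

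**Figure D4:**
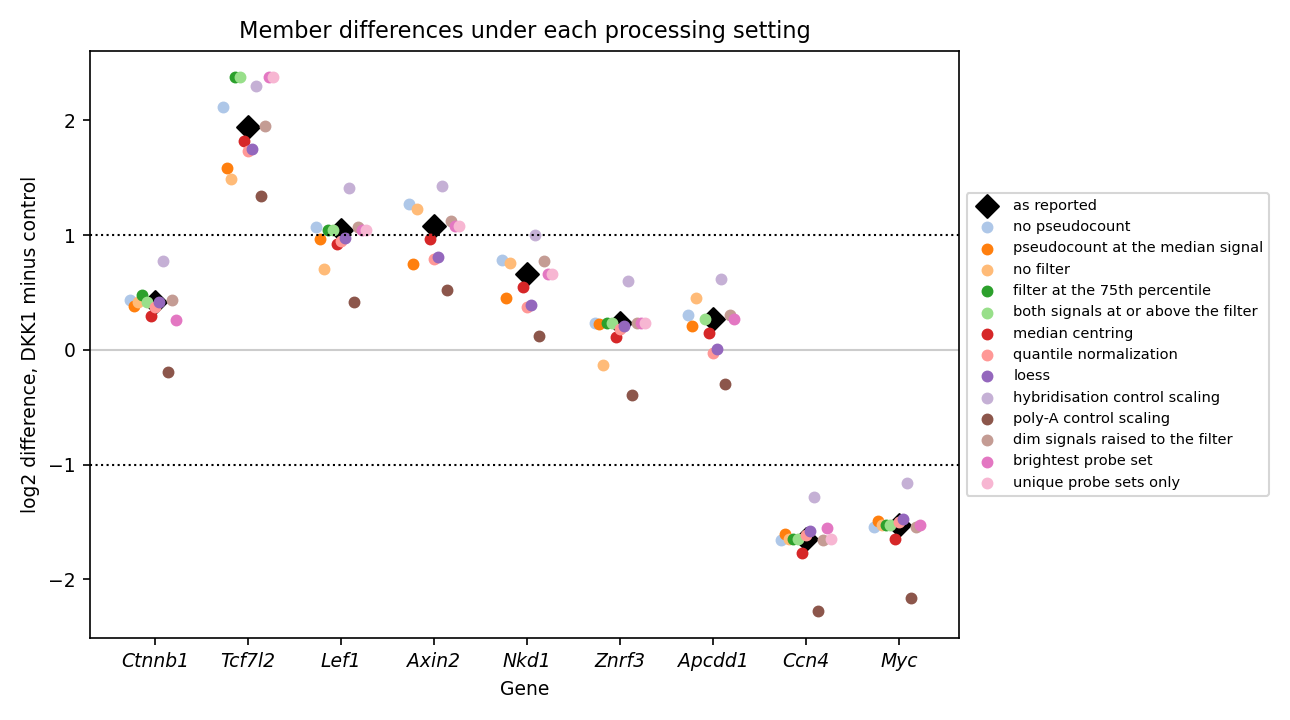
Log2 difference (DKK1 minus control) of each of the 9 genes as reported (black diamonds) and under 13 alternative processing settings (coloured points), with dotted lines at 2-fold. Tcf7l2, Ccn4 and Myc stay past the lines in every setting that gives them a value, Lef1 and Axin2 cross the upper line, and the values of Ctnnb1, Znrf3 and Apcdd1 on poly-A scaling lie below 0.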

How the data were processed

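The authors deposited 1 signal per probe set, an intensity on a linear scale, for 45101 probe sets on each of 2 Affymetrix arrays. MAS5 made these signals, per the submitters' processing notes; the sources used here give neither its version nor its settings. Without the highest and lowest 2%, the mean signal was 500.0 on both arrays, so each array was scaled to a common trimmed mean, and a shift shared by all genes cannot be seen. No detection calls were used.

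Symbols came from the platform annotation, checked by gene ID against RefSeq (GRCm38.p6; 34754 of 34958 matched, 13 control probe sets then left out). Python 3.11.15, numpy 2.4.6, pandas 2.3.3 and statsmodels 0.14.6 (loess) were used. The calling steps were tested on simulated data whose changes were all well past 2-fold, so calls near that limit were not tested. Genes of the pathway lists were named by a rule, up to 3 called genes per list with the largest differences; others are said to be picked after their values were seen, or complete a count. The members and lists were chosen with earlier results of these data known. The array's number of 1 per group limits precision. Marker sums use the brightest probe set of each gene. Alternatives covered the pseudocount, the filter, the scaling and the choice of probe sets. Promoters were searched on both strands for exact matches.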

Additional observations from a re-analysis of the deposited data

How the results depend on the processing

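Call counts, list medians and the differences of the 9 genes and of the 20 pathway genes named by the rule were recomputed under 13 alternatives; marker sums, percentiles, the dim probe sets and the chromosome 15 counts were not. The 3 genes of the set called higher became 1, Tcf7l2, with a pseudocount at the median signal, median centring, quantile normalization, loess and poly-A scaling. The 2 called lower became 1, Ccn4, without probe sets whose names carry an a, s or x suffix. The only Myc probe set carries the a suffix, so Myc had no value there. Among pathway genes, the 20 called higher became 9 on poly-A scaling, and the 16 called lower became 8 on hybridisation scaling and 38 on poly-A scaling. Other settings kept these counts within 1.5 times. None of the 5 called genes of the set and none of the 20 pathway genes named by the rule changed sign where an alternative gave a value. Some alternatives left genes without a measured probe set, such as Axin2 and Nkd1 where both signals had to reach the filter. No paired analysis was possible because each group has 1 array. Signal over background limits Axin2, Nkd1 and Apcdd1 most, each resting on 1 measured probe set, with mean signals of 110, 96.3 and 153.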
